A study of Mus musculus with 6 samples.

Results

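The Hox-cluster miRNAs are the miR-10, miR-196 and miR-615 miRNAs, whose genes lie inside the 4 Hox gene clusters. All miRNA names on the arrays whose stem is miR-10a, miR-10b, miR-196a, miR-196b or miR-615 were taken, with both arms of each precursor and whether or not they were detected, which gave 9 names of 690. MicroRNA levels were measured on 6 one-colour Agilent arrays in cells sorted from transgenic mice in which GFP reports smooth muscle actin (SMA), a protein of contractile cells. All sorted cells lacked CD45, a marker of blood cells, and CD31, a marker of endothelium. The 3 wound preparations (numbered 3, 4 and 6 in the labels) were GFP(high) cells, called myofibroblast by the submitters and taken 7 days after injury. The 3 skin preparations (1, 2 and 5) were GFP(low) cells, called fibroblast-like. Strain, age, the body site of skin and wound, and whether each preparation came from its own animal are not given in the labels. The p-values therefore rest on how much single preparations varied, some of which may be technical. Wound against skin also means high against low GFP, and possibly another body site, and these cannot be told apart.

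Hox genes encode homeodomain transcription factors that are expressed in nested domains along the body axis, and fibroblasts of adult skin keep expressing the Hox genes of their site of origin. The miR-10 and miR-196 genes are embedded in the same clusters and are transcribed in Hox-like domains, and both families target Hox transcripts. In mouse, miR-196a directs cleavage of the Hoxb8 mRNA, and in human cells miR-10b represses HOXD10. Mir10b lies on chromosome 2 within the annotated spans of Hoxd3 and Hoxd4, and Mir10a on chromosome 11 within that of Hoxb3, between Hoxb5 and Hoxb4. Mir196a-1 lies on chromosome 11 between Hoxb13 and Hoxb9, Mir196a-2 on chromosome 15 between Hoxc10 and Hoxc9, and Mir196b on chromosome 6 between Hoxa9 and Hoxa10. Mir615 lies on chromosome 15 within the span of Hoxc5. These positions are from RefSeq annotation of GRCm38.p6.

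The 4 members that were measured are shown first, because they form 2 pairs of near-identical sequences and the results on the members follow these pairs. All 9 members matched the RefSeq table (GRCm38.p6). The mature sequences run 5′ to 3′, with the seed, bases 2 to 8, in capitals.
miR-10b-5p: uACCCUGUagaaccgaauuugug
miR-10a-5p: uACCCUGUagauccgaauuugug
miR-196a-5p: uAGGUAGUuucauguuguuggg
miR-196b-5p: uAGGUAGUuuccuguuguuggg
The miR-10 pair shares its seed and differs at 1 base, A12U (miR-10b-5p first, counted from the 5′ end). The miR-196 pair also shares its seed and differs at 1 base, A12C (miR-196a-5p first). Cross-hybridisation within a pair was not tested, so the values of each paralog are uncertain to that extent. miR-196a-5p has the same mature sequence from 2 genes, Mir196a-1 and Mir196a-2, which the array cannot separate.

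Of the 9 members, 4 had signals well above background on each of the 6 arrays, namely the 5p arms of miR-10a, miR-10b, miR-196a and miR-196b. The other 5 were well above background on no array. Levels are log2 of the background-subtracted signal divided by each array's 75th percentile over well-measured probes, with a floor at -5.30. In limma, with Benjamini-Hochberg adjustment over the 222 tested miRNAs at 0.05, 2 members were lower and 1 higher in the wound cells, and 1 did not pass. Of all tested miRNAs 64.9% were called, 20.7% lower and 44.1% higher in the wound cells, so a count of 3 of 4 is near the share of all. The groups did not overlap for 3 of the 4 members, 2 with all wound values below and 1 with all above, against 69.8% of all tested miRNAs, 21.2% below and 48.6% above. The higher and lower calls of all tested miRNAs numbered 98 and 46 here, against 52 and 76, 66 and 66, 70 and 67, and 54 and 54 with scaling to the percentile of all probes, to the median, by quantiles and without scaling. Under each of these 4 other scalings 3 members were called lower and 0 higher, so the mixed direction of the members holds for the main scaling only. The median difference of all tested miRNAs lay between -0.19 and 0.38 over these 5 scalings, and each member's difference is therefore also given after subtracting that median.

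Per array, 187 to 233 names were well above background, with 0 saturated spots. The percentile used for scaling ran between 786 and 1772 intensity units, and the local background had medians between 49 and 56. Of 10 mesenchymal names (miR-199a, miR-199b, miR-214, miR-143, miR-145a and miR-21a), 7 had signals well above background on each array. None of the 8 striated muscle names was so on any array, and of the 7 blood names 6 were so on none, with miR-451a well above background on 2 skin arrays. Of the 12 epithelial names 10 were well above background on no array. The other two, miR-205-5p and miR-203-3p, were so on 0 wound arrays and on the 3 skin arrays. For miR-126-3p, which marks endothelium, the difference was 0.50 (adjusted p = 0.109 in limma), turned sign with scaling and passed under 0 of the 5 scalings. It passed as higher with array weights (0.71), with a block for the slide row (0.63) and without skin array 2 (0.70). A log2 table that the authors deposited holds the same arrays, but its column numbers do not match the array titles for any of the 6. Paired by values, columns 1, 2 and 3 were wound arrays 3, 4 and 6, in that order. Columns 4, 5 and 6 were skin arrays 1, 2 and 5. Groups here follow the titles of the scanner files. Read by the table's column numbers, which mixes wound and skin arrays, the difference of miR-10b-5p would be 1.20 (adjusted p = 0.935 in limma).

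miR-10b-5p (mmu-miR-10b-5p on the array), from the Hoxd cluster, was far lower in the wound cells. Its log2 level was -2.48, -2.69 and -2.54 on wound arrays 3, 4 and 6, against 0.43, 0.77 and 0.59 on skin arrays 1, 2 and 5. The groups lay far apart relative to the spread within either, with means of -2.57 ± 0.11 in wound and 0.60 ± 0.17 in skin (SD, n = 3 each). The difference was -3.17 (SE 0.11, adjusted p = 8.7e-06 in limma), a level 8.98-fold higher in skin, and it ranked 1st among the decreases of the 156 miRNAs measured on all arrays. In bulk RNA, fewer cells that express a miRNA and less of it per cell cannot be told apart. After subtracting the median of all tested miRNAs the difference was -3.55, and between -3.66 and -3.41 over the 5 scalings.

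Both probes of miR-10b-5p, with 10 spots each, showed the same separation before any scaling. Probe A_54_P2341 read 78.1, 105.5 and 115.1 intensity units on wound arrays 3, 4 and 6, against 1047, 995 and 1327 on skin arrays 1, 2 and 5. Probe A_54_P2342 read 203.8, 233.4 and 275.5 on the wound arrays, against 2964, 3238 and 4007 on the skin arrays. No wound reading of either probe came near its skin readings. On the scaled log2 scale the probes differed by -2.92 and -3.26, and the spots of a probe on 1 array varied by 2.49% to 11.04% (coefficient of variation). With normexp background correction the difference shrank to -1.79 (SE 0.47, adjusted p = 0.0474 in limma). The median of all tested miRNAs was then 1.03 and is not subtracted from that value. This correction here also added an offset of 50 intensity units. The part of the offset in the normexp values was not tested.

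**Figure D1:**
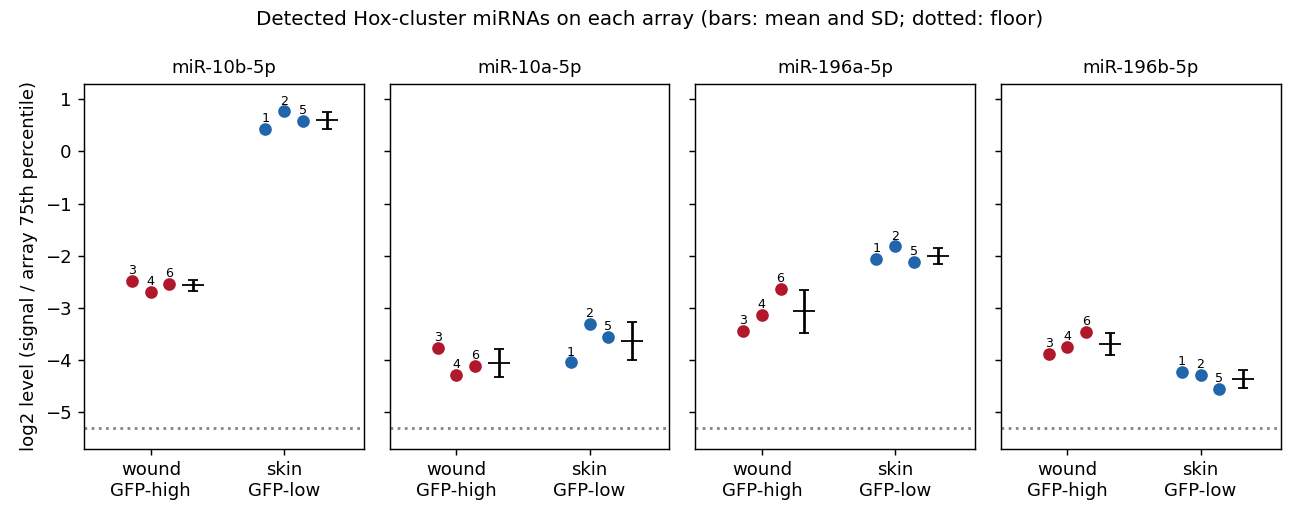
Log2 level of the 4 measured Hox-cluster miRNAs on each array, 1 panel each, with wound GFP-high preparations (red) left of skin GFP-low preparations (blue). Numbers are preparation numbers, bars are mean and SD (n = 3), and the dotted line is the floor at -5.30. miR-10b-5p and miR-196a-5p lay lower on all wound arrays, miR-196b-5p higher, and the groups of miR-10a-5p overlapped.

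miR-10a-5p, the paralog from the Hoxb cluster, differed much less. Its log2 level was -3.77, -4.29 and -4.11 on wound arrays 3, 4 and 6, against -4.04, -3.31 and -3.55 on skin arrays 1, 2 and 5. The groups overlapped, since wound array 3 lay above skin array 1. The difference was -0.42 (SE 0.24, adjusted p = 0.183 in limma), which did not pass. Under the 4 other scalings it was between -1.10 and -0.83 and passed in each, and after subtracting the median of all tested miRNAs it was between -1.07 and -0.80 over all 5. Its 2 probes disagreed. Probe A_54_P1422 read 38.0, 35.7 and 46.6 intensity units on wound arrays 3, 4 and 6, against 44.3, 65.2 and 79.8 on skin arrays 1, 2 and 5, which overlap. Probe A_54_P1423 read 77.5, 76.7 and 84.7 on the wound arrays, against 135.8, 184.8 and 222.2 on the skin arrays, which do not. On the scaled log2 scale these probes differed by -0.042 and -0.58.

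Within each array, scaling by a constant cancels from the log2 difference between the paralogs, so the unequal change of a pair can be read without it. miR-10b-5p minus miR-10a-5p was 1.29, 1.59 and 1.57 on wound arrays 3, 4 and 6, against 4.48, 4.08 and 4.14 on skin arrays 1, 2 and 5. The groups did not overlap. The mean was 1.48 ± 0.17 in wound and 4.23 ± 0.21 in skin (SD, n = 3 each), a change of -2.75 (exact two-sided permutation test, p = 0.1, the smallest that 3 against 3 arrays allow; adjusted over 2 pairs 0.1). The test cannot reach 0.05 at this size. The absolute value of such a difference depends on the probes and says nothing of which paralog is more abundant.

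**Figure D2:**
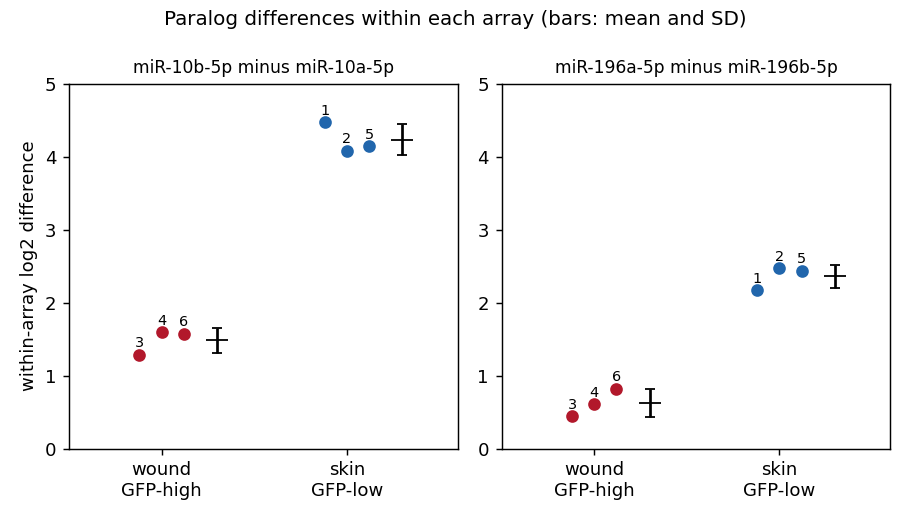
Within-array log2 difference between the paralogs of each pair, with wound preparations (red) left of skin preparations (blue); numbers are preparation numbers and bars are mean and SD (n = 3). In both pairs all 3 wound values lay below all 3 skin values.

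miR-196a-5p, from the Hoxb and Hoxc clusters, was also lower in the wound cells, by less than miR-10b-5p. It had log2 levels of -3.44, -3.14 and -2.64 on wound arrays 3, 4 and 6, against -2.06, -1.82 and -2.12 on skin arrays 1, 2 and 5. The wound values all lay below the skin values and were more spread out (means -3.07 ± 0.41 in wound and -2.002 ± 0.16 in skin; SD, n = 3 each). The difference was -1.07 (SE 0.23, adjusted p = 0.0108 in limma), a level 2.10-fold higher in skin, which ranked 19th among the decreases of the 156 miRNAs measured on all arrays. miR-196a-5p passed as lower under all 5 scalings, at -1.60 to -1.45 after subtracting the median of all. Its call was lost without skin array 2 (-0.97, adjusted p = 0.0572 in limma) and with no filter on dim miRNAs (adjusted p = 0.072 in limma), and the difference turned sign with normexp (0.24, adjusted p = 0.704 in limma).

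The 4 probes of miR-196a-5p, with 5 spots each, all pointed the same way by different amounts. A_54_P2462 differed by -0.52, A_54_P2463 by -0.87, A_54_P2464 by -1.21 and A_54_P2465 by -1.20. Probe A_54_P2465 read 98.8, 172.5 and 258.5 intensity units on wound arrays 3, 4 and 6, against 533.8, 545.6 and 611.8 on skin arrays 1, 2 and 5, with no overlap before scaling.

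miR-196b-5p, from the Hoxa cluster, passed as higher in the wound cells, but under the main scaling only. Its log2 level was -3.88, -3.74 and -3.45 on wound arrays 3, 4 and 6, against -4.23, -4.29 and -4.56 on skin arrays 1, 2 and 5. The groups did not overlap, as was the case for 69.8% of all tested miRNAs. The means were -3.69 ± 0.22 in wound and -4.36 ± 0.18 in skin (SD, n = 3 each), and the difference was 0.67 (SE 0.15, adjusted p = 0.0121 in limma). It was called under 1 of the 5 scalings, turned sign under 2 of them (-0.017 with the percentile of all probes and -0.087 with quantiles), and lay between -0.087 and 0.29 after subtracting the median of all. Before scaling its probe A_54_P2704 read 77.0, 115.5 and 149.9 intensity units on wound arrays 3, 4 and 6, against 118.2, 95.7 and 111.5 on skin arrays 1, 2 and 5. Its other probe, A_54_P2703, read 29.7, 48.1 and 57.5 on the wound arrays, against 40.1, 31.4 and 38.7 on the skin arrays, and was well above background on 4 of the 6. The readings of both probes overlapped between the groups, and the direction rests on the scaling. Its call was also lost without skin array 2 (0.72, adjusted p = 0.0507 in limma) and with normexp (1.05, adjusted p = 0.173 in limma). With all arrays kept, miR-196b-5p was called as higher in 6 of 15 settings, the main one included.

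**Figure D3:**
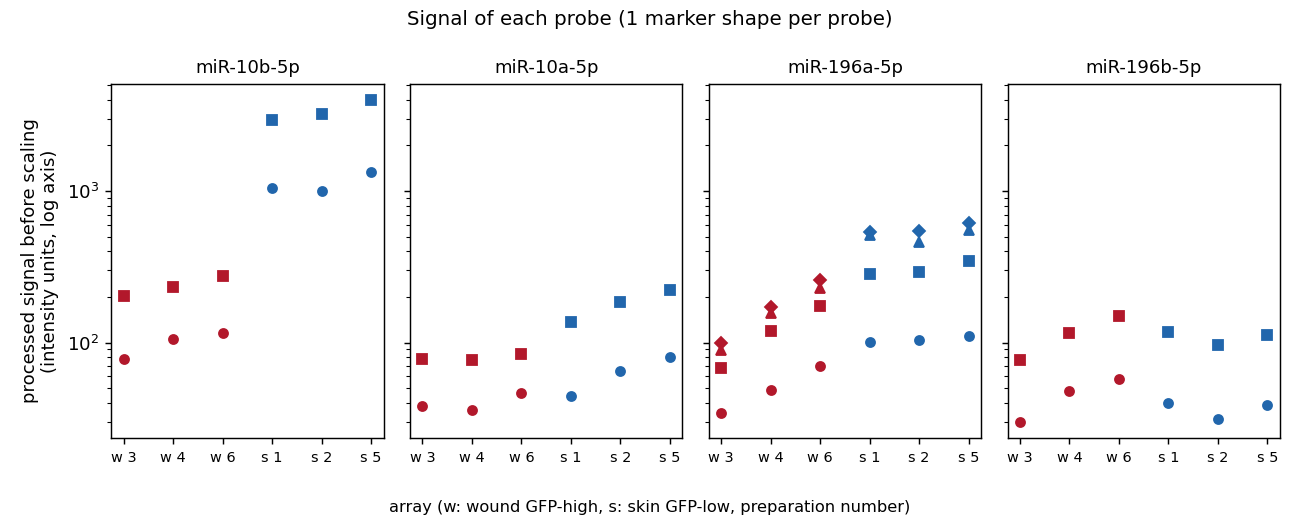
Processed signal in intensity units (log axis) of each probe of the 4 measured members before scaling, by array, with wound arrays 3, 4 and 6 (red) left of skin arrays 1, 2 and 5 (blue) and 1 marker shape per probe. Both miR-10b-5p probes were far apart between the groups, and the miR-196b-5p probes overlapped.

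miR-196a-5p minus miR-196b-5p was 0.44, 0.61 and 0.82 on wound arrays 3, 4 and 6, against 2.17, 2.47 and 2.44 on skin arrays 1, 2 and 5. The mean was 0.62 ± 0.19 in wound and 2.36 ± 0.16 in skin (SD, n = 3 each), a change of -1.74 with no overlap (exact two-sided permutation test, p = 0.1, the smallest possible; adjusted over 2 pairs 0.1). This pair was chosen for comparison after its values were seen. The members of the miR-10 pair were also chosen with earlier results of these data known.

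**Figure D4:**
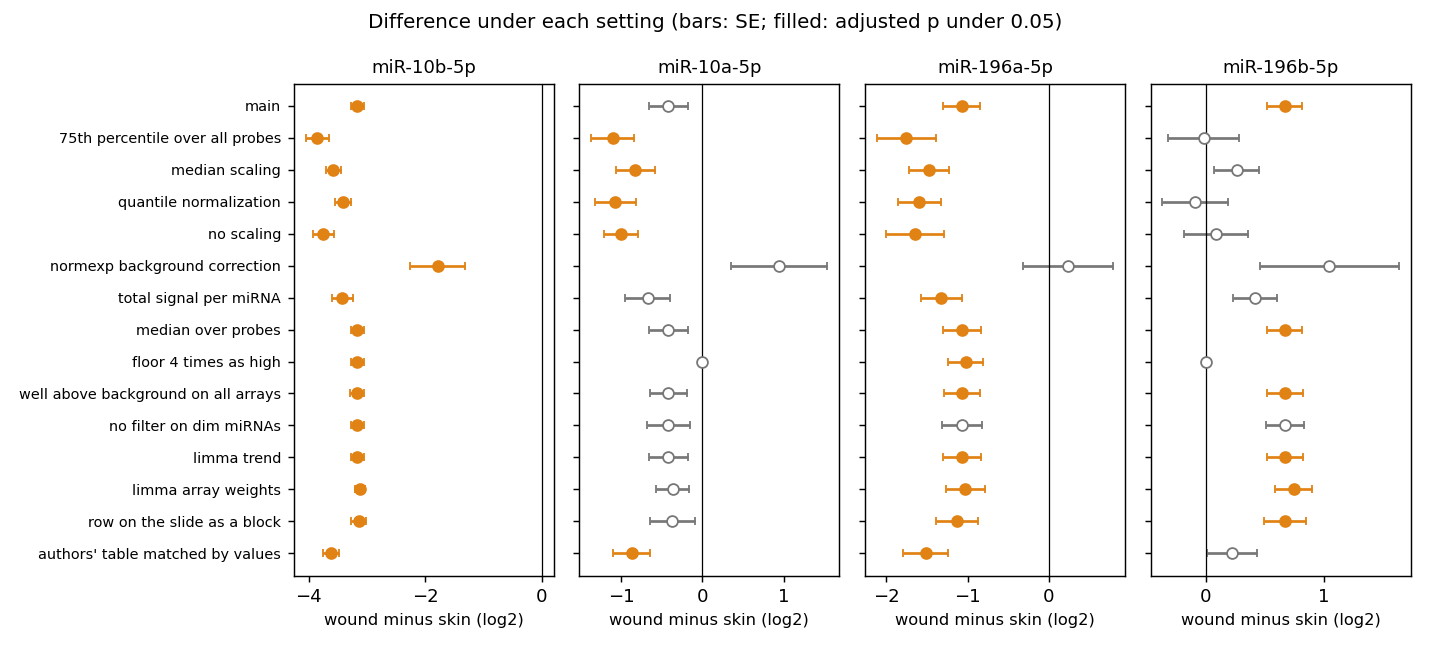
Wound minus skin difference (log2) of the 4 measured members under the main setting and 14 alternatives, with SE bars and filled symbols where the adjusted p in limma was under 0.05. miR-10b-5p was filled and lower throughout, miR-196b-5p lay between -0.087 and 0.26 under the other 4 scalings, and normexp gave the outlying values of all 4.

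The remaining 5 members gave no measurable level. They were miR-10a-3p, miR-10b-3p, miR-196a-2-3p, miR-615-3p and miR-615-5p, of which 4 are 3p arms, each with 4 probes of 5 spots. Their mean scaled signal was at most 0.00920 on any array, against a floor of 0.0253. miR-615-3p held that highest value. The scanner software, which uses another criterion, listed miR-615-3p as detected on 5 of the 6 arrays with total signals of 6.05 to 8.18 intensity units, and 1 of its 4 probes, A_54_P2973, read 21.1, 25.8 and 23.9 on wound arrays 3, 4 and 6, against 18.2, 28.5 and 25.5 on skin arrays 1, 2 and 5. The groups overlapped at that probe. A difference in these 5 names was not detectable at this signal.

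**Figure D5:**
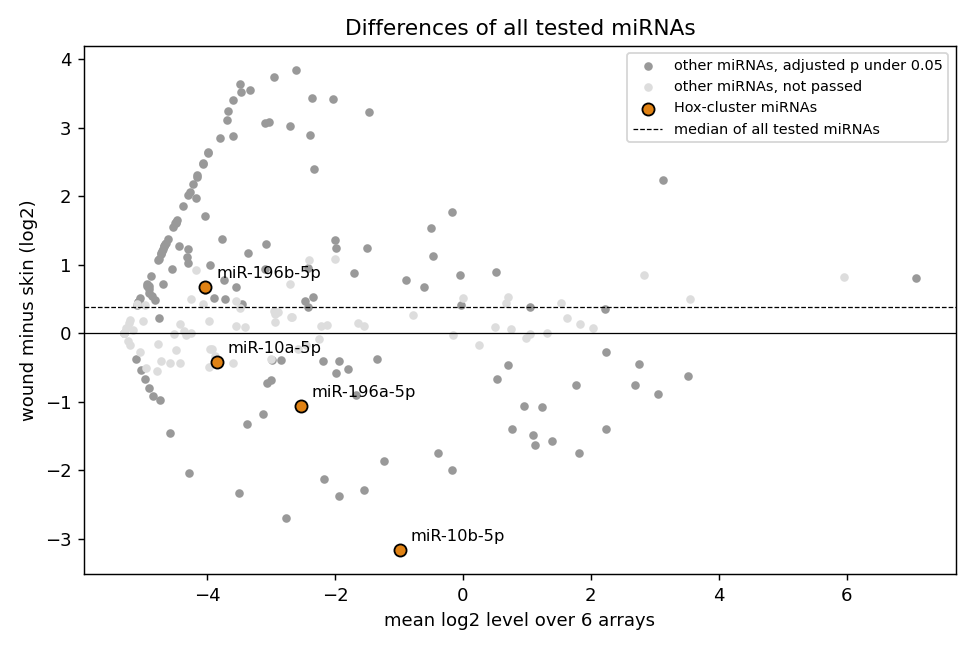
Wound minus skin difference (log2) against mean log2 level over 6 arrays for the 222 tested miRNAs, with the 4 measured Hox-cluster miRNAs in orange and other miRNAs in grey (dark where the adjusted p in limma was under 0.05). miR-10b-5p lies at -3.17, below every other tested miRNA, while miR-10a-5p and miR-196b-5p lie among the bulk of the points.

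Among miRNAs outside the Hox clusters, the miR-99 and miR-100 miRNAs are related to miR-10 in sequence, with a seed that differs from that of the miR-10 pair. They are shown for comparison with the sequences above.
miR-100-5p: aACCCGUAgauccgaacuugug
miR-99a-5p: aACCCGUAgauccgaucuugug
miR-99b-5p: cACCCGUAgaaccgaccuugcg
Of 4 names of these stems 3 were tested, of which 2 were lower and 1 higher in the wound cells, beside 20.7% lower and 44.1% higher over all tested miRNAs. The log2 level of miR-100-5p was -2.05, -2.23 and -2.21 on wound arrays 3, 4 and 6, against -0.38, -0.23 and -0.27 on skin arrays 1, 2 and 5, with no overlap. miR-100-5p averaged -2.16 ± 0.10 in wound and -0.29 ± 0.07 in skin (SD, n = 3 each), a difference of -1.87 (SE 0.07). miR-99a-5p averaged 0.06 ± 0.12 in wound and 1.46 ± 0.07 in skin, a difference of -1.40 (SE 0.08). miR-99b-5p averaged -2.63 ± 0.05 in wound and -3.57 ± 0.12 in skin, a difference of 0.94 (SE 0.07), which was called under 2 of the 5 scalings. This family too held members of both signs under the main scaling. The median of the 3 was -1.40, beside 0.38 over all tested miRNAs. These stems were chosen with earlier results of these data known.

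A list of 10 stems outside the Hox clusters whose miRNAs are reported to target Hox transcripts covered 17 names, of which 10 were tested. In the wound cells 6 were lower, 1 was higher and 3 did not pass, where 20.7% of all tested miRNAs were lower under the main scaling. The list was chosen with earlier results of these data known, so its count and median do not test an excess of decreases. The list's median difference was -0.997, beside 0.38 over all tested miRNAs, and 2 of the lower members, miR-99a-5p and miR-100-5p, are those described above. miR-181a-5p, which targets Hoxa11 in mouse muscle cells, differed by -2.34 (SE 0.14) and miR-181b-5p by -1.32 (SE 0.10). miR-218-5p differed by -2.13 (SE 0.19) and miR-27a-3p by -0.67 (SE 0.12). miR-130a-3p, which targets HOXA5 in human endothelial cells, differed by 0.85 (SE 0.09) and was called under 3 of the 5 scalings. The 6 lower members passed under each of the 5 scalings, and 1 was called lower with normexp.

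The miRNAs whose profiles over the 6 arrays were most like that of miR-10b-5p, by the root mean square difference between log2 values centred on each miRNA's own mean, were miR-101a-3p (0.41), miR-181a-5p (0.44), miR-29c-3p (0.52), miR-29b-3p (0.56) and miR-23b-3p (0.59), of 152 compared. The closest, miR-101a-3p, had log2 levels of -3.97, -4.07 and -4.34 on wound arrays 3, 4 and 6, against -1.17, -1.86 and -1.25 on skin arrays 1, 2 and 5, with no overlap. Each was lower in the wound cells, by differences of -2.70, -2.34, -2.29, -2.38 and -1.997. With normexp none of the 5 passed in limma, and the differences were -0.32, 0.32, -0.896, -0.66 and -1.40 (adjusted p of 0.646, 0.638, 0.173, 0.297 and 0.0523). These stand beside a normexp median of 1.03 over all tested miRNAs. The 6 points of each profile share their arrays and their scaling, and they mainly hold the difference between the groups. miR-196a-5p lay at 1.08 from miR-10b-5p, miR-10a-5p at 1.38 and miR-196b-5p at 1.93, which would place them 19th, 31st and 105th.

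Like miR-10b-5p and miR-196a-5p, miR-205-5p and miR-203-3p passed as lower in the wound cells. These epithelial names entered the test through the skin group alone, and they lay at the floor on every wound array. miR-31-5p, an epithelial name outside the 12 listed, went the other way, by 1.27 (adjusted p = 0.00145 in limma). It lay at the floor on every skin array. The summed scaled level of the 12 epithelial names was 0.00513 to 0.00920 on the wound arrays, which is below the floor of 0.0253 for a single miRNA, and 0.120 to 0.204 on the skin arrays. Of the 10 mesenchymal names 9 were tested, with 3 called higher and 2 called lower. miR-21a-5p averaged 4.24 in wound and 2.01 in skin on the log2 scale, a difference of 2.24. miR-199a-3p differed by -0.62 and miR-199b-5p by -0.75, so the mesenchymal names did not move one way. Their summed scaled level was 34.0 to 36.6 on the wound arrays and 24.2 to 28.8 on the skin arrays. This sum is linear and weighs bright names most, and miR-21a-5p was the brightest of them in wound. It therefore does not show that the mesenchymal names were higher as a group. The part of any of these in the differences of the Hox-cluster miRNAs was not tested.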

How the data were processed

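Per the labels, Cy3-labelled total RNA was run on Agilent miRNA arrays, 1 array for each preparation. All 6 arrays shared 1 slide, and spots were read by Feature Extraction 10.7.3.1, per the file headers. Those deposited files give the intensity of each spot after background subtraction, with no scaling across arrays. How the authors made their deposited log2 table is not stated in the labels; each column equals the log2 total signal of 1 array minus a constant, within 0.001, over 656 of its 691 rows.

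For 1928 probes the processed signal was averaged over spots without outlier flags, scaled by that array's 75th percentile (taken over probes well above background on all 6 arrays), averaged over a miRNA's probes, raised to a floor of 0.0253 and taken to log2. A miRNA was tested when a probe was well above background (over 50% of its spots) on all 3 arrays of a group. The fit was limma 3.58.1 in R 4.3.3, two-sided, and paralog differences were compared by exact permutation. The fit was also run on simulated data, using only miRNAs well above background on all arrays and independent noise. That run does not cover miRNAs dim in a group or effects shared within an array. The number of arrays limits the precision. Figures were drawn with matplotlib 3.10.9.

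All members were named; 5 miRNAs were chosen by likeness to miR-10b-5p among those well above background on all arrays, and members of the lists of related and Hox-targeting miRNAs could be named where tested. The members, lists and rules were chosen with earlier results of these data known. Alternatives covered scaling, background correction, signal, probe summary, floor, filter, limma options, slide row as a block, left-out arrays and the authors' table.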

Additional observations from a re-analysis of the deposited data

How the results depend on the processing

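miR-10b-5p stayed lower with an adjusted p under 0.05 in limma under every alternative except the authors' table read by column number, at -3.23 to -3.07 with single arrays left out. No paired analysis was possible because the labels do not say which preparations, if any, came from the same animal. Blocking on the slide row gave -3.14 for miR-10b-5p and 3 members called. The row was read from the names of the scanner files and was unbalanced. Row 1 held skin arrays 1 and 2 and wound array 3, and row 2 held wound arrays 4 and 6 and skin array 5. Members called numbered 3 in the main setting (2 lower, 1 higher) and 3 under each of the 4 other scalings (3 lower, 0 higher). They numbered 1 with normexp, 1 with no filter on dim miRNAs and 1 to 3 with single arrays left out, the 1 being without skin array 2. Calls over all tested miRNAs numbered 144, and 23 with normexp, 78 after raising the floor 4 times and 127 to 136 with single arrays left out. Directions turned for miR-196b-5p with the percentile of all probes (-0.017) and quantiles (-0.087), and for miR-126-3p with these (-0.19 and -0.22) and without scaling (-0.084). Under normexp they turned for miR-10a-5p (0.95), miR-196a-5p (0.24), miR-181a-5p (0.32) and miR-181b-5p (0.60), with a median over all tested miRNAs of 1.03; the cause was not tested.

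Read by column number, which regroups the arrays, the authors' table gave 0 calls in limma (1 at an unadjusted p under 0.05) and 0 members called. The value was then 1.20 for miR-10b-5p, 0.12 for miR-10a-5p, 0.77 for miR-196a-5p, 1.08 for the change of miR-10b-5p minus that of miR-10a-5p and 0.64 for that of the miR-196 pair. It was 0.67 for miR-99a-5p, -0.17 for miR-99b-5p, 0.79 for miR-100-5p, 0.95 for miR-218-5p, 0.74 for miR-181a-5p, 0.51 for miR-181b-5p, 0.51 for miR-27a-3p, -0.011 for miR-130a-3p and -0.14 for miR-126-3p. It was 1.29 for miR-101a-3p, 1.14 for miR-29c-3p, 1.24 for miR-29b-3p and 0.66 for miR-23b-3p. With columns paired to arrays by their values, miR-10b-5p differed by -3.62. In every other alternative the change of miR-10b-5p minus that of miR-10a-5p lay between -3.17 and -2.34. The -3.17 came with the floor 4 times as high. There miR-10a-5p lay at the floor on every array, so that value is the change of miR-10b-5p alone. The dim signals of miR-10a-5p and miR-196b-5p, both at the floor when it was 4 times as high, limit what can be said of them.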
